A study of Arabidopsis thaliana with 9 samples.

Results

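Expansins and xyloglucan endotransglucosylase/hydrolases (XTHs) are the proteins that plants secrete to loosen and rebuild the growing cell wall, and 58 of the 26973 genes in the deposited Arabidopsis table carry such a product name. A gene was taken where its description contains the word expansin, xyloglucan endotransglucosylase or xyloglucan endotransglycosylase. The 58 genes comprise 22 alpha-expansins, 3 beta-expansins, 4 expansin-like genes and 29 XTHs. Of these, 44 had a genotype mean of 1 FPKM or more and were tested, FPKM being a level per exon length and library size. These were 14 alpha-expansins, 2 beta-expansins, all 4 expansin-like genes and 24 XTHs.

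The primary wall is a network of cellulose microfibrils coated and tethered by xyloglucan, a branched glucan. Alpha-expansins are small wall proteins without known hydrolytic activity that let microfibrils slip past each other at the acid pH of a growing wall. XTHs cut a xyloglucan chain and join the new end to another chain, and some members hydrolyse it instead, so that together they lengthen, shorten or reinforce the tethers. Many members of both families are known to be expressed mainly in particular organs or cells, several of them in root hairs or in the root elongation zone.

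RNA-seq libraries were made from seedlings of 3 genotypes, with 3 libraries each. The titles of all 9 start with Colombia, the spelling there, followed by YK2, 1C9 or WT. The genotypes were OXmiR400 (YK2), named for the microRNA miR400, OXrPPR1 (1C9), named for a pentatricopeptide repeat protein gene, and wild type (WT). Seedlings of all 9 libraries had been kept with 100 µM cadmium, a toxic metal, for 6 h. Untreated seedlings were not analysed here, and the values give no effect of the metal itself. The sources used here do not give the promoter of each transgene, the number of independent lines or the seedling age. They also do not say whether the 3 libraries of a genotype are separate cultures, and p-values then reflect library-to-library spread that may be technical.

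Depth rebuilt from the deposited values was 17.1, 15.6 and 16.4 M units (a unit is a read or a fragment, M is mega) in OXmiR400, 21.1, 20.4 and 19.3 M in OXrPPR1 and 12.7, 17.1 and 15.1 M in wild type. The genes named by the labels matched them: MIR400 was at 629 to 953 FPKM in OXmiR400 and at most 0.572 FPKM in the other 6 libraries, and PPR1 at 21.9 to 25.5 FPKM in OXrPPR1 and at most 2.56 FPKM in the other 6. Over the 19955 genes tested, however, OXrPPR1 replicate 3 correlated better with wild type replicate 3 (r = 0.971 across genes, log2 scale) than with either library of its own genotype (0.965 and 0.962), and wild type replicate 2 better with OXrPPR1 replicate 1 (0.9745, the best match of that library too) than with its own (0.964 and 0.970). Genes are not independent replicates, and these values are a description. Results that rest on these libraries are therefore also given without them. Green shoot markers summed to 14336, 17181 and 15774 FPKM in OXmiR400, 13571, 15211 and 11989 FPKM in OXrPPR1 and 10894, 12158 and 12766 FPKM in wild type. None of 13 root hair markers was at 0 in any library.

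XTH24, also known as MERI5 and named for its expression in meristems, was the most abundant member in every library. It was at 624, 702 and 712 FPKM in OXmiR400, at 1138, 1012 and 532 FPKM in OXrPPR1 and at 530, 890 and 421 FPKM in wild type. By itself it made up 24.3% to 43.9% of the summed FPKM of the 58 genes. The 5 genes with the highest means, XTH24, XTH4, XTH15, XTH7 and TCH4, made up 60.7% to 74.6%. XTH4, which acts in walls of elongating stems and developing wood, followed at 244, 286 and 271 FPKM in OXmiR400, 319, 295 and 250 FPKM in OXrPPR1 and 275, 219 and 210 FPKM in wild type. When the 58 genes were ranked by their mean, XTH24 over XTH4 was the 1 step at which the ranges of neighbours over the 9 libraries did not overlap. Every later neighbour pair overlapped, so the order below the top is not fixed by these data.

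Expansins lay lower. Among the 58 genes, the alpha-expansin with the highest mean was EXPA1 (AT1G69530), linked to the opening of stomata, with a mean of 47.1 FPKM over the 9 libraries, and the expansin-like gene with the highest mean was EXLA1 at 32.7 FPKM. EXP3, an alpha-expansin whose description uses other words and that is given at the end, had higher genotype means than EXPA1. In total 24 members averaged 10 FPKM or more and 4 of them 100 FPKM or more. The summed level of the alpha-expansins was 256 ± 13.8 FPKM in OXmiR400, 215 ± 25.1 FPKM in OXrPPR1 and, in wild type, 220 ± 37.0 FPKM (SD, n = 3 each). That of the XTHs was 1912 ± 37.5 FPKM in OXmiR400, 2109 ± 375 FPKM in OXrPPR1 and, in wild type, 1532 ± 221 FPKM, so that XTH transcripts outweighed those of alpha-expansins in each genotype. The expansin-like genes summed to 64.5 ± 12.9 FPKM in OXmiR400, 74.5 ± 10.3 FPKM in OXrPPR1 and, in wild type, 49.8 ± 12.7 FPKM. The beta-expansins summed to 11.5 ± 2.40 FPKM in OXmiR400, 10.7 ± 3.76 FPKM in OXrPPR1 and, in wild type, 10.9 ± 5.42 FPKM.

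**Figure D1:**
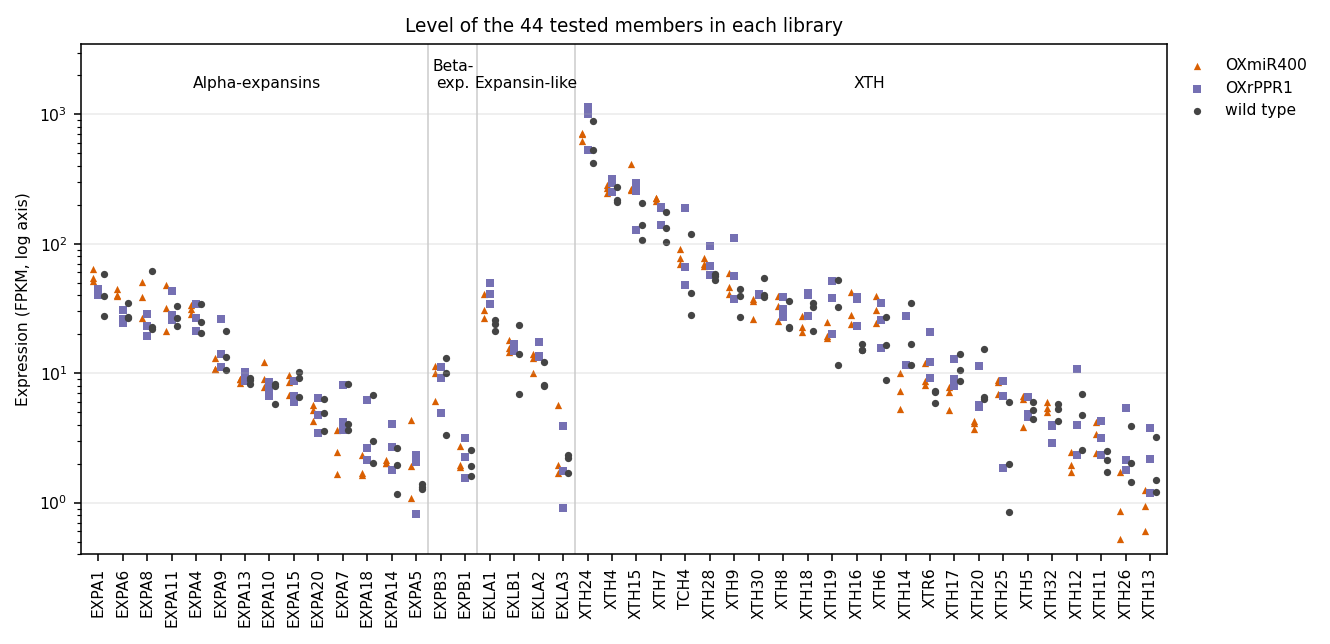
Expression of the 44 tested members in FPKM on a log axis, with 1 point per library (triangles OXmiR400, squares OXrPPR1, circles wild type) and genes ordered by mean within family. XTH24 stands above all others in every library, and most members lie between 1 and 100 FPKM with genotypes that overlap.

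The other 14 members stayed below the filter and were not tested: 8 alpha-expansins, 1 beta-expansin and 5 XTHs. Their largest single value was 1.75 FPKM, of XTH21, a gene known from root growth, in OXrPPR1 replicate 1. The members just outside the filter, by their highest genotype mean, were XTH10 at 0.937, XTH21 at 0.780, EXPA16 at 0.6296 and EXPA17, known from lateral root emergence, at 0.575 FPKM. Those just inside were EXPB1 at 2.32 and XTH13 at 2.39 FPKM. Among the 14, 6 genes (EXPA2, EXPA22, EXP26, EXPA25, XTH2 and XTH3) were listed at 0 in at least 5 of the 9 libraries. Up to 53.7% of the 50-base stretches of EXPA25 and 34.6% and 34.0% of those of EXP26 and EXPA22 also occur elsewhere in the genome, so that reads of these genes may have been shared or lost. Among tested members that share was at most 1.77%, in XTH19.

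No member passed the test in any of the 3 comparisons. In OXmiR400 against wild type, 0 of 44 members were called at an adjusted p under 0.05 (limma on log2(FPKM + 1), Benjamini-Hochberg adjustment over all genes tested), where 0.571% of the 19955 genes were. In OXrPPR1 against wild type 0 of 44 were called against 0.0651% of all genes, and in OXmiR400 against OXrPPR1 0 of 44 against 0.0651%. The smallest adjusted p of a member was 0.102 for XTH16, 0.158 for EXLA1 and 0.297 for EXPA6 in those comparisons. With so few genes called in the whole table, a count of 0 is near the background and says nothing in particular about these families.

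At an unadjusted p under 0.05 in limma, 12 of 44 members (27.3%) differed between OXmiR400 and wild type, against 15.9% of all genes. Of these, 7 were higher in OXmiR400 (XTH6, XTH7, XTH15, XTH16, XTH25, EXPA6 and EXLA1), where the share over all genes was 6.71%, and 5 were lower (XTH14, XTH17, XTH20, XTH30 and EXPA7), where it was 9.19%. Between OXrPPR1 and wild type 5 members (11.4%) did, against 10.5% of all genes, with XTH16, XTR6, EXLA1 and EXLA2 higher in OXrPPR1 (4.81% of all genes were) and XTH32 lower (5.7%). Between OXmiR400 and OXrPPR1 7 members (15.9%) did, against 7.41%, with EXPA6 and XTH32 higher in OXmiR400 (3.34% of all genes were) and XTH13, XTH17, XTH18, XTH26 and EXPA7 lower (4.06%). The first and second comparisons share the wild type libraries, so their counts are not independent.

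The median log2 fold change of the 44 members was 0.22 in OXmiR400 against wild type, where that of all genes was -0.018, and 30 members (68.2%) lay above 0, against 46.9% of all genes. In OXrPPR1 against wild type it was 0.18, where that of all genes was -0.021, with 33 members (75.0%) above 0 against 46.0%. Between OXmiR400 and OXrPPR1 it was -0.049, where that of all genes was 0.0017, with 19 members (43.2%) above 0 against 50.4%. Libraries of the genotypes did not overlap for 13, 5 and 11 members in the 3 comparisons (29.5%, 11.4% and 25.0%), where the share over all genes was 24.3%, 14.7% and 13.2%. In OXmiR400 against wild type 8 of the 13 were higher (10.8% of all genes) and 5 lower (13.5%). In OXrPPR1 against wild type 4 were higher (6.36%) and 1 lower (8.33%), and in OXmiR400 against OXrPPR1 4 were higher (5.9%) and 7 lower (7.28%). The medians describe 44 genes chosen with results of these data known and carry no test.

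**Figure D2:**
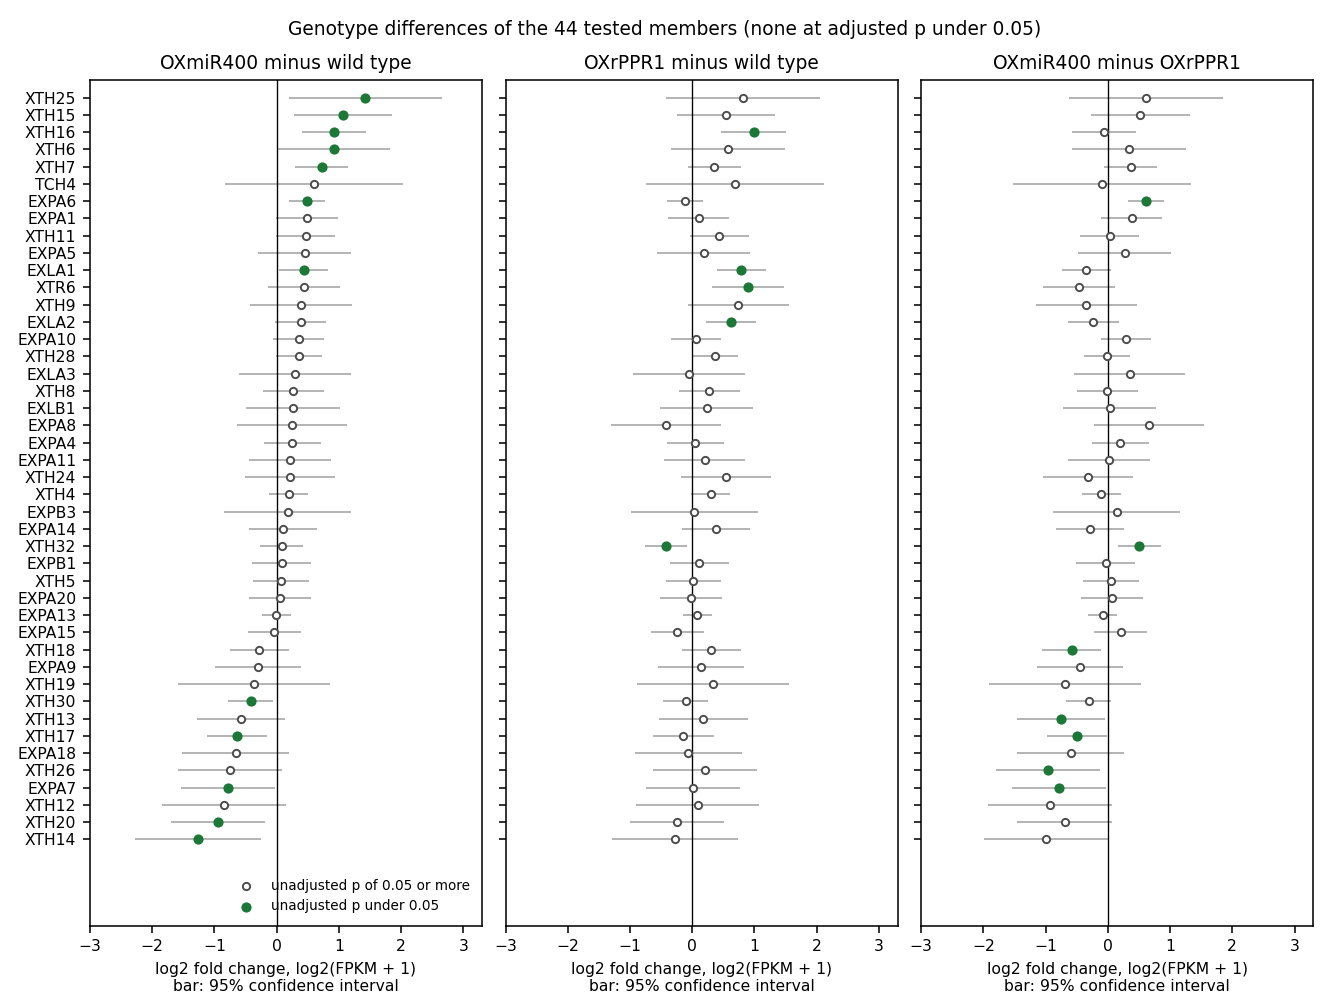
Log2 fold change of the 44 tested members on the log2(FPKM + 1) scale, in 1 panel per comparison, with 95% confidence intervals from limma as bars; filled points have an unadjusted p under 0.05. No member passed after adjustment, and XTH25 and XTH14 lie at the ends of the OXmiR400 panel at 1.43 and -1.26.

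Among alpha-expansins, EXPA6 (AT2G28950, chromosome 2, 12431338 to 12433796, minus strand, TAIR10.1) separated OXmiR400 from the other genotypes. It was at 45.01, 40.3 and 39.6 FPKM in OXmiR400, 31.0, 24.2 and 26.1 FPKM in OXrPPR1 and 34.6, 26.8 and 27.2 FPKM in wild type. All 3 OXmiR400 libraries thus lay above the other 6. The log2 fold change was 0.49 ± 0.13 against wild type (SE, 95% interval 0.20 to 0.78, adjusted p = 0.116 in limma) and 0.61 ± 0.13 against OXrPPR1 (0.32 to 0.90, adjusted p = 0.297). Between OXrPPR1 and wild type it was -0.12 ± 0.13, with libraries that overlap.

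EXPA1 was at 54.7, 51.5 and 63.4 FPKM in OXmiR400, 40.1, 44.2 and 44.5 FPKM in OXrPPR1 and 57.9, 27.5 and 39.8 FPKM in wild type. Wild type replicate 1 reached into the OXmiR400 range, and the difference of 0.49 ± 0.22 (log2, SE) from wild type did not pass (adjusted p = 0.320 in limma). EXPA8 (AT2G40610) showed how far a single library can stand apart: it was at 26.9, 50.6 and 38.8 FPKM in OXmiR400, 28.4, 19.2 and 23.1 FPKM in OXrPPR1 and 61.5, 22.7 and 21.9 FPKM in wild type. Its log2 fold change in OXrPPR1 against wild type was -0.41 ± 0.39 (SE) and turned to 0.061 without wild type replicate 1.

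EXPA14 (AT5G56320), known as a target of a lateral root transcription factor, was at 2.13, 2.02 and 2.02 FPKM in OXmiR400, 2.67, 1.78 and 4.07 FPKM in OXrPPR1 and 1.16, 1.94 and 2.63 FPKM in wild type. EXPA15 was at 9.73, 6.80 and 8.61 FPKM in OXmiR400, 6.72, 5.95 and 8.75 FPKM in OXrPPR1 and 10.3, 6.57 and 9.16 FPKM in wild type. These are, with EXPA8, the alpha-expansins with the smallest p in OXrPPR1 against wild type, and their adjusted p there was 0.613 to 0.746 in limma. EXPA13 (AT3G03220) varied least of the 44 tested members. Its 9 values ran from 8.21 to 10.2 FPKM, a ratio of 1.24, and its 95% intervals, -0.23 to 0.23 in OXmiR400 and -0.15 to 0.31 in OXrPPR1 against wild type, were also narrow.

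Beta-expansins, the family of the grass pollen allergens, were measured at low levels. EXPB3 (AT4G28250) was at 11.4, 6.11 and 10.07 FPKM in OXmiR400, 9.13, 11.2 and 4.89 FPKM in OXrPPR1 and 3.35, 10.09 and 13.05 FPKM in wild type. EXPB1 (AT2G20750) was at 1.97, 2.75 and 1.88 FPKM in OXmiR400, 3.14, 2.25 and 1.56 FPKM in OXrPPR1 and 1.62, 1.91 and 2.55 FPKM in wild type. All genotypes overlapped for both genes. The intervals of EXPB3 reached from -0.84 to 1.195 in OXmiR400 and from -0.99 to 1.05 in OXrPPR1 against wild type. A rise of 2-fold would lie within them, while their lower limits were folds of 0.557 and 0.505. EXPB2 (AT1G65680) was not tested; its largest value was 0.335 FPKM in OXmiR400 replicate 3, and 4 libraries were listed at 0.

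Expansin-like proteins share the fold of expansins, and no wall-loosening activity is established for them. EXLA1 (AT3G45970, chromosome 3, 16896166 to 16897308, plus strand) was at 40.9, 30.6 and 26.6 FPKM in OXmiR400, 40.7, 50.02 and 34.4 FPKM in OXrPPR1 and 21.1, 23.9 and 25.7 FPKM in wild type. The 3 wild type libraries were the lowest of the 9. The log2 fold change was 0.44 ± 0.18 in OXmiR400 (SE, 95% interval 0.05 to 0.83, adjusted p = 0.261 in limma) and 0.79 ± 0.18 in OXrPPR1 (0.39 to 1.18, adjusted p = 0.158) against wild type. The gene shares 22 bases with the histone gene HTB9 on the opposite strand, and whether counting used strand is not stated.

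EXLA2 (AT4G38400), known from the response to the fungus Botrytis, was at 14.2, 13.1 and 10.099 FPKM in OXmiR400, 13.4, 17.4 and 13.6 FPKM in OXrPPR1 and 8.08, 7.94 and 12.1 FPKM in wild type. In OXrPPR1 all libraries lay above wild type (log2 fold change 0.62 ± 0.18, SE, adjusted p = 0.278 in limma), while in OXmiR400 replicate 3 lay below wild type replicate 3. EXLB1 (AT4G17030) was at 18.2, 14.7 and 15.7 FPKM in OXmiR400, 15.8, 16.9 and 14.8 FPKM in OXrPPR1 and 6.91, 14.1 and 23.4 FPKM in wild type, so the wild type range enclosed those of both lines.

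XTH16 (AT3G23730, chromosome 3, 8550037 to 8551403, plus strand) was the XTH with the smallest p in both lines against wild type. It was at 42.7, 28.2 and 24.1 FPKM in OXmiR400, 37.5, 38.5 and 23.0 FPKM in OXrPPR1 and 15.1, 16.9 and 15.2 FPKM in wild type. All 6 libraries of the lines lay above all 3 of wild type. The log2 fold change was 0.93 ± 0.23 in OXmiR400 (SE, 95% interval 0.41 to 1.44, adjusted p = 0.102 in limma) and 0.99 ± 0.23 in OXrPPR1 (0.47 to 1.51, adjusted p = 0.172), and both values use the same wild type libraries. Between the lines it was -0.06 ± 0.23 (-0.58 to 0.46).

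XTH15 (AT4G14130), a close relative known to be induced in petioles by shade, was at 415, 261 and 263 FPKM in OXmiR400, 292, 128 and 256 FPKM in OXrPPR1 and 107, 139 and 206 FPKM in wild type. OXmiR400 lay above wild type in every library (log2 fold change 1.07 ± 0.35, SE, 95% interval 0.28 to 1.86, adjusted p = 0.192 in limma), and OXrPPR1 overlapped both. The annotated gene shares 382 bases with a gene on the opposite strand. XTH7 (AT4G37800) was at 224, 226 and 215 FPKM in OXmiR400, 189, 138 and 194 FPKM in OXrPPR1 and 133, 103 and 176 FPKM in wild type. As with EXPA6, the 3 OXmiR400 libraries were the highest of the 9, and the difference from wild type was 0.72 ± 0.19 (log2, SE, 0.29 to 1.15, adjusted p = 0.117 in limma). EXPA6 and XTH7 were the 2 tested members with that order of libraries (4.55%), which 2.36% of all tested genes had.

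XTR6 (AT4G25810, also called XTH23) and XTH32 (AT2G36870) followed XTH16 in p among the XTHs in OXrPPR1 against wild type. XTR6 was at 12.1, 8.04 and 8.63 FPKM in OXmiR400, 9.14, 21.0 and 12.2 FPKM in OXrPPR1 and 5.91, 7.10 and 7.25 FPKM in wild type, with a log2 fold change of 0.89 ± 0.26 in OXrPPR1 against wild type (SE, 0.31 to 1.47, adjusted p = 0.277 in limma). Its OXmiR400 libraries also lay above all wild type libraries, by 0.43 ± 0.26 (log2, SE, adjusted p = 0.455), and overlapped those of OXrPPR1 (adjusted p = 0.761). XTH32 was at 6.03, 4.998 and 5.37 FPKM in OXmiR400, 3.96, 2.86 and 3.91 FPKM in OXrPPR1 and 5.30, 4.28 and 5.78 FPKM in wild type. Its 3 OXrPPR1 libraries were the lowest of the 9, by -0.42 ± 0.15 against wild type (log2, SE, adjusted p = 0.390 in limma), while OXmiR400 and wild type overlapped. The wild type libraries were the lowest 3 for XTR6, XTH16 and EXLA1 (6.82% of members, 3.31% of all tested genes).

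For the most abundant members the intervals were wide. XTH24 differed by 0.22 ± 0.32 in OXmiR400 (log2, SE, 95% interval -0.51 to 0.94) and by 0.54 ± 0.32 in OXrPPR1 (-0.18 to 1.27) against wild type, intervals that hold folds of 0.703 to 1.92 and of 0.881 to 2.40. XTH4 was better resolved, at 0.19 ± 0.14 (-0.12 to 0.51) and 0.30 ± 0.14 (-0.02 to 0.61). TCH4 (AT5G57560, also called XTH22), the touch-induced gene of the family, was at 70.1, 77.9 and 91.4 FPKM in OXmiR400, 66.3, 190 and 47.7 FPKM in OXrPPR1 and 28.2, 118 and 41.8 FPKM in wild type. Its values in OXrPPR1 replicate 2 and wild type replicate 2 exceeded all others, and its interval in OXmiR400 against wild type reached from -0.83 to 2.03.

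Several of the members that varied most are known from roots. EXPA7 (AT1G12560) and EXPA18 (AT1G62980) are alpha-expansins of root hair cells, XTH14 and XTH26 encode enzymes acting in the root hair and elongation zone, and XTH12, XTH13 and XTH17 to XTH20 are likewise root-expressed. EXPA7 was at 3.63, 2.47 and 1.66 FPKM in OXmiR400, 4.22, 3.65 and 8.13 FPKM in OXrPPR1 and 3.62, 4.06 and 8.21 FPKM in wild type. XTH14 (AT4G25820) was at 9.97, 7.31 and 5.30 FPKM in OXmiR400, 11.6, 11.5 and 27.5 FPKM in OXrPPR1 and 16.7, 11.5 and 34.8 FPKM in wild type. In both genes wild type replicate 3 and OXrPPR1 replicate 3 were the 2 highest of the 9 libraries. The OXmiR400 libraries were the lowest 3 for XTH14, and OXmiR400 replicates 2 and 3 the lowest 2 for EXPA7.

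The 250 bases before the annotated start of EXPA7 are shown because they hold the root hair element, a motif first described from root hair gene promoters that include those of EXPA7 and EXPA18; the capitals mark it, 62 to 78 bases before the start (RefSeq TAIR10.1, chr1:4276255-4276504, plus strand). For EXPA18 the capitals lie 25 to 40 bases before the start, and 28 bases around them are given (chr1:23331517-23331544, plus strand), a stretch that also lies within a gene annotated on the opposite strand.
EXPA7: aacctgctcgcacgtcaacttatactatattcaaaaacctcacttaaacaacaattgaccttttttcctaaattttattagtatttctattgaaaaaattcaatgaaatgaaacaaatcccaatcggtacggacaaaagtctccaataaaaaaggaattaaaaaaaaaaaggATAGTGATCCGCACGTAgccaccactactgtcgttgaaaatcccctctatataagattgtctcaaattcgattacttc
EXPA18: aaaacaAACATGAACGCACGTCcattac
Searched on both strands of the 250 bases before each start, the element matched in these 2 of 58 members (3.45%) and in 207 of 27443 protein-coding genes (0.754%). The G-box, CACGTG, which like the element holds the letters CACG, matched in 1 member, EXPB2 (1.72%), and in 6.49% of protein-coding genes. A match is a string of letters and no measure of binding, and because the element was described from EXPA7 and EXPA18 their matches are not independent of it.

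EXPA18 had the same 2 highest libraries, at 1.63, 2.35 and 1.70 FPKM in OXmiR400, 2.64, 2.12 and 6.18 FPKM in OXrPPR1 and 2.97, 2.02 and 6.75 FPKM in wild type. XTH20 (AT5G48070), known from the reunion of cut stems, was at 3.71, 4.15 and 4.25 FPKM in OXmiR400, 5.52, 5.68 and 11.4 FPKM in OXrPPR1 and 6.33, 6.49 and 15.4 FPKM in wild type. XTH26 (AT4G28850) was at 0.521, 0.857 and 1.72 FPKM in OXmiR400, 2.14, 1.80 and 5.42 FPKM in OXrPPR1 and 2.04, 1.43 and 3.93 FPKM in wild type. These 5 genes were chosen for description after their values were seen. In OXmiR400 against wild type their log2 fold changes were -0.78 ± 0.34 for EXPA7, -1.26 ± 0.44 for XTH14, -0.65 ± 0.38 for EXPA18, -0.94 ± 0.34 for XTH20 and -0.75 ± 0.37 for XTH26 (SE, adjusted p = 0.216 to 0.447 in limma). In OXrPPR1 against wild type they lay between -0.28 and 0.21, with adjusted p of at least 0.841.

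The 13 markers of root hair cells summed to 24.4, 25.7 and 22.8 FPKM in OXmiR400, 40.9, 38.4 and 76.8 FPKM in OXrPPR1 and 47.6, 30.5 and 80.3 FPKM in wild type. The highest sums were in OXrPPR1 replicate 3 and wild type replicate 3, as for these members. Of the 12 tested, 0 were called in any comparison (limma). In OXmiR400 against wild type all 12 had a log2 fold change below 0 (46.9% of all genes lay above 0), with a median of -0.61. At an unadjusted p under 0.05, 7 were lower, as were 9.19% of all genes. Against OXrPPR1 all 12 were again below 0 (50.4% of all genes lay above 0), with a median of -0.70, and 7 were lower at an unadjusted p under 0.05, as were 4.06% of all genes. In OXrPPR1 against wild type the median was -0.0076, with 6 below 0 and 0 at an unadjusted p under 0.05. The peroxidase gene PRX73, the marker with the smallest p in OXmiR400 against wild type, averaged 4.09 ± 0.197 FPKM in OXmiR400 and 10.5 ± 4.69 FPKM in wild type (SD, n = 3 each).

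The 10 markers of the endodermis and stele summed to 80.2, 76.8 and 78.7 FPKM in OXmiR400, 139, 74.6 and 108 FPKM in OXrPPR1 and 93.1, 101 and 100 FPKM in wild type. In OXmiR400 against wild type 5 of them lay above 0 and 5 below, with a median of -0.092. Those above 0 included SCR and SHR. The Casparian strip gene CASP1, the marker with the smallest p, averaged 15.2 ± 0.716 FPKM in OXmiR400 and 28.0 ± 1.92 FPKM in wild type (SD, n = 3 each, adjusted p = 0.0929 in limma). The 9 green shoot markers all lay above 0 in OXmiR400 against wild type (46.9% of all genes did), with a median of 0.26. Libraries did not overlap for 5 of them (10.8% of all genes were higher without overlap). At an unadjusted p under 0.05, 2 were higher, as were 6.71% of all genes. Of the 9, 0 were called, LHCB1.2 having the smallest adjusted p (0.0609 in limma). Of the same 9, 7 lay above 0 in OXrPPR1 against wild type (46.0% of all genes did), with a median of 0.23. There, 1 was higher and 1 lower at an unadjusted p under 0.05, as were 4.81% and 5.7% of all genes. Whether the share of shoot, root or root hair tissue in the samples has a part in the values of EXPA7, EXPA18 and the root XTHs was not tested, and in bulk samples fewer cells of a type and less RNA per cell cannot be told apart.

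**Figure D3:**
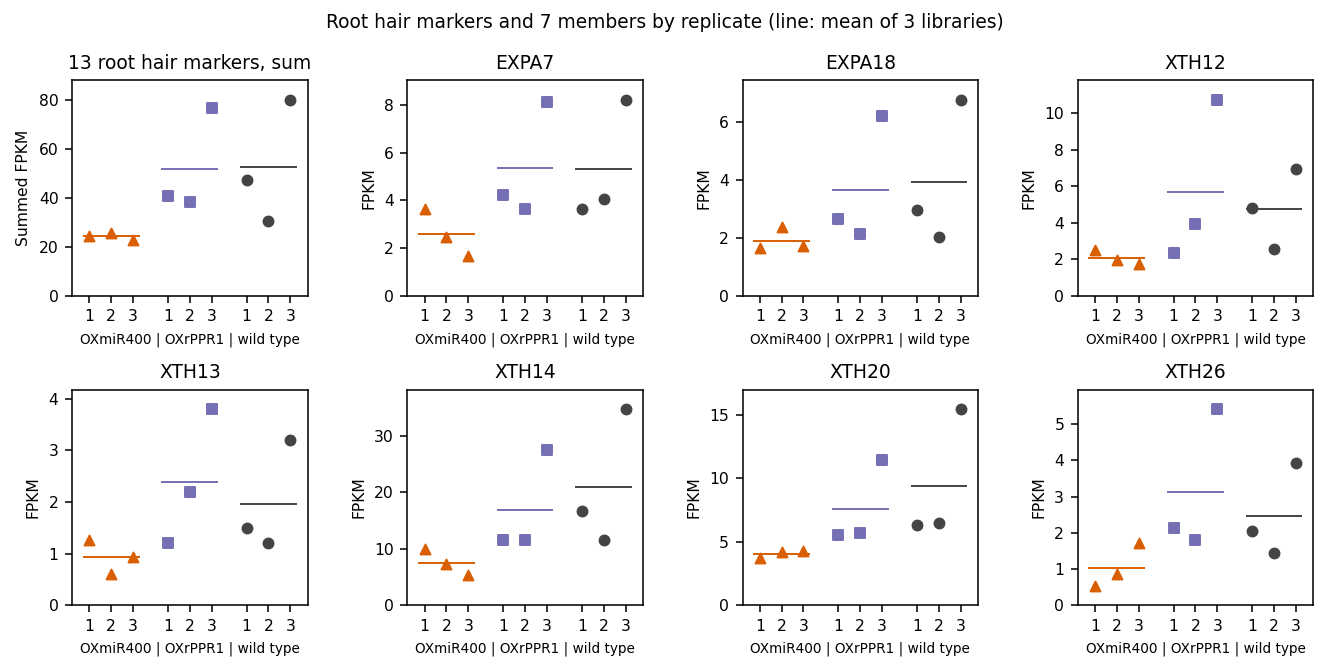
Summed FPKM of 13 root hair markers and FPKM of 7 members known from roots, with 1 point per library (triangles OXmiR400, squares OXrPPR1, circles wild type) and a line at the mean of each genotype; every vertical axis starts at 0. Replicate 3 of OXrPPR1 and of wild type are the 2 highest libraries in all 8 panels, and the OXmiR400 markers lie at 22.8 to 25.7 FPKM. The 7 members were picked after their values were seen and all have this order of libraries. XTH17 and XTH18, also known from roots, do not have it and are not shown.

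Across all members, the libraries of a genotype differed from each other. The ratio of the highest to the lowest of the 9 libraries had a median of 2.70 over the 44 members, against 1.65 over all tested genes without a 0. Within OXmiR400 that ratio was 1.44, within OXrPPR1 1.83 and within wild type 1.67, where it was 1.24, 1.32 and 1.29 over all such genes. XTH25 had the widest range, from 0.850 to 8.90 FPKM, a ratio of 10.5.

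A set of 11 members had their highest 2 libraries in wild type replicate 3 and OXrPPR1 replicate 3 (25.0% of members, 4.77% of all tested genes). These were EXPA4, EXPA7, EXPA9, EXPA18, EXPA20, XTH12, XTH13, XTH14, XTH19, XTH20 and XTH26. The annotated EXPA20 shares 1061 bases with a long noncoding RNA gene on the opposite strand, and whether counting used strand is not stated. EXPA7 and EXPA18 are the root hair expansins named above. XTH17 and XTH18, also named above as root-expressed, were not among the 11. In contrast, XTH6, XTH9, XTH24, XTH25 and TCH4 had their lowest 3 libraries in wild type replicates 1 and 3 and OXrPPR1 replicate 3 (11.4% of members, 2.93% of all tested genes). XTH14, XTH17, XTH20 and XTH30 had their lowest 3 in the libraries of OXmiR400 (9.09%, against 3.71%). No member had its highest 3 in the libraries of wild type, where 4.34% of all tested genes did. These orders were picked after the values were seen and are a description only.

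**Figure D4:**
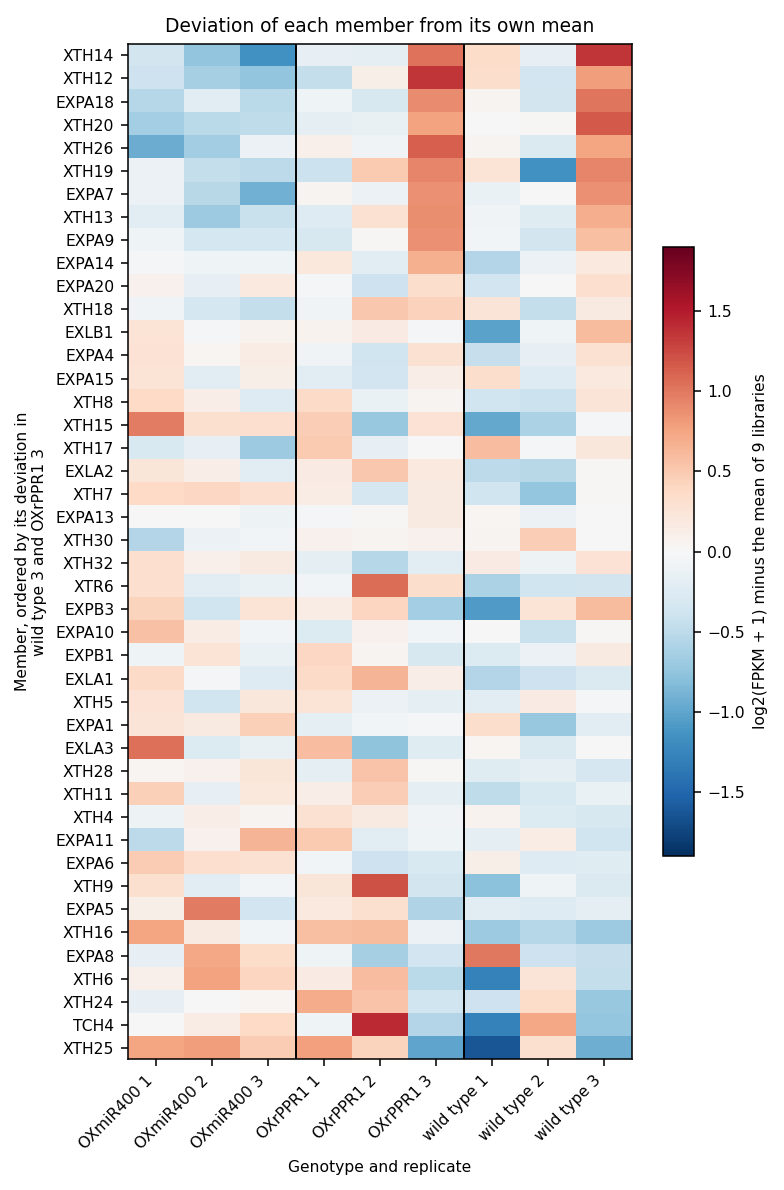
Heatmap of log2(FPKM + 1) of each tested member (rows) minus its own mean over 9 libraries, by genotype and replicate (columns), with rows ordered by wild type replicate 3 and OXrPPR1 replicate 3; red is above and blue below the mean. The upper rows, with XTH14 and XTH12 first, are red in those libraries and blue in OXmiR400, and the lowest rows, with TCH4 and XTH25 last, show the opposite in the same libraries.

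Without wild type replicate 2 and OXrPPR1 replicate 3, 4 calls appeared. In OXmiR400 against wild type, XTH25 (AT5G57550) was called at a log2 fold change of 1.95 (adjusted p = 0.00874 in limma) and XTH12 (AT5G57530) at -1.15 (adjusted p = 0.0485), among 373 of 20052 genes (1.86%). In OXrPPR1 against wild type, XTH25 was called at 1.87 (adjusted p = 0.0344) and XTH24 at 1.18 (adjusted p = 0.0370), among 37 genes (0.185%). With all 9 libraries XTH25 was at 8.60, 8.90 and 6.95 FPKM in OXmiR400, 8.72, 6.64 and 1.85 FPKM in OXrPPR1 and 0.850, 6.01 and 1.99 FPKM in wild type. Both libraries left out were closest to a library of another genotype, so that their omission favours a difference between genotypes. Without them XTH14 differed by -1.60 between OXmiR400 and wild type (adjusted p = 0.0700) and EXPA7 by -0.90 (adjusted p = 0.205). XTH16 was at 0.98 in OXmiR400 (adjusted p = 0.0630) and at 1.27 in OXrPPR1 (adjusted p = 0.0791) against wild type, and EXLA1 at 0.93 in OXrPPR1 against wild type (adjusted p = 0.108).

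Of the 58 members, 15 lie in 5 groups of neighbours less than 20 kb apart, and neighbours often differed in their order of libraries. The largest expressed group is on chromosome 5 (23300321 to 23308680, minus strand), where XTH12, XTH13, XTH25 and TCH4 follow each other within 8.36 kb. XTH12 was at 2.48, 1.96 and 1.73 FPKM in OXmiR400, 2.35, 3.95 and 10.7 FPKM in OXrPPR1 and 4.79, 2.54 and 6.92 FPKM in wild type. XTH13 (AT5G57540) was at 1.25, 0.608 and 0.936 FPKM in OXmiR400, 1.195, 2.19 and 3.80 FPKM in OXrPPR1 and 1.49, 1.21 and 3.20 FPKM in wild type. Both had their peaks in replicate 3 of OXrPPR1 and of wild type, the libraries in which the adjacent XTH25 and TCH4 were low.

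On chromosome 4 the neighbours XTR6 and XTH14 (13128394 to 13131860, plus strand, 3.47 kb in all) also differed: XTR6 was lowest in the wild type libraries and XTH14 in those of OXmiR400. In the trio XTH24, XTH18 and XTH19 (14819192 to 14830224, minus strand, 11.03 kb), XTH19 (AT4G30290) was at 24.9, 19.4 and 18.8 FPKM in OXmiR400, 19.96, 38.3 and 51.95 FPKM in OXrPPR1 and 32.3, 11.5 and 52.1 FPKM in wild type. XTH24 had low values in replicate 3 of OXrPPR1 and of wild type, where XTH19 was highest. A group of alpha-expansins on chromosome 5, EXPA21, EXPA22, EXP26 and EXPA25, stayed below the filter as a whole. On chromosome 3, EXLA3 lies beside EXLA1 and was far lower, at 5.69, 1.70 and 1.94 FPKM in OXmiR400, 3.89, 0.906 and 1.75 FPKM in OXrPPR1 and 2.34, 1.68 and 2.22 FPKM in wild type.

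**Figure D5:**
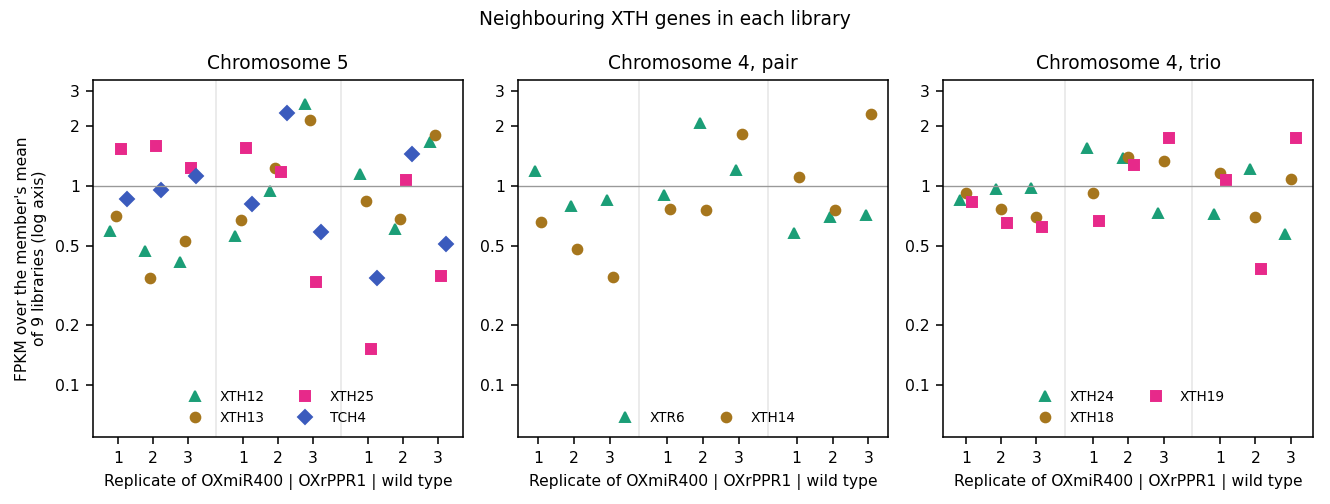
FPKM of neighbouring XTH genes divided by each gene's mean over 9 libraries (log axis), with 1 point per library and gene, in 3 groups of neighbours. On chromosome 5, XTH12 and XTH13 are high and XTH25 and TCH4 low in replicate 3 of OXrPPR1 and of wild type.

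XTH17 (AT1G65310, chromosome 1) and XTH18 (AT4G30280, chromosome 4) are close relatives on different chromosomes. XTH17 was at 7.15, 7.87 and 5.17 FPKM in OXmiR400, 12.97, 7.89 and 9.02 FPKM in OXrPPR1 and 13.96, 8.73 and 10.5 FPKM in wild type. XTH18 was at 27.6, 22.9 and 20.9 FPKM in OXmiR400, 27.7, 41.8 and 39.9 FPKM in OXrPPR1 and 34.7, 21.1 and 32.7 FPKM in wild type. In OXmiR400 against OXrPPR1 the libraries of both genes did not overlap, with log2 fold changes of -0.49 ± 0.22 for XTH17 and -0.58 ± 0.21 for XTH18 (SE, adjusted p = 0.670 and 0.574 in limma).

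The 250 bases before each start are shown because the 73 next to it are identical in the pair, in capitals, and occur in none of the other protein-coding genes' windows (2 of 27443, 0.00729%; RefSeq TAIR10.1, chr1:24256804-24257053, plus strand, and chr4:14827212-14827461, minus strand).
XTH17: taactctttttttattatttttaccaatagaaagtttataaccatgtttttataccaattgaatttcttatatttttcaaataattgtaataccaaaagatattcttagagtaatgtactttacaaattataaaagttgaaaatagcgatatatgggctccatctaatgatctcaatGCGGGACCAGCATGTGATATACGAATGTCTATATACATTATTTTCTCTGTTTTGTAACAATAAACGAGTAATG
XTH18: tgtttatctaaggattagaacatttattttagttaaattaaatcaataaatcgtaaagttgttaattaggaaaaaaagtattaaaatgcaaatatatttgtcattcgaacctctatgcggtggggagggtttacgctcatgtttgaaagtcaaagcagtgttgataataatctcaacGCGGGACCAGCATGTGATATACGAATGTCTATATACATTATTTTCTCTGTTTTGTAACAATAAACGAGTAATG
Within the transcripts, 0.182% of the 50-base stretches of XTH17 and 1.70% of those of XTH18 occur elsewhere in the genome, so few reads could be shared between them.

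XTH14 and XTH13, which had the same 2 highest libraries, share a shorter run of 12 bases upstream, in capitals, 57 to 68 bases before the start of XTH14 (chr4:13130041-13130290, plus strand) and 84 to 95 bases before that of XTH13 (chr5:23304096-23304345, minus strand).
XTH14: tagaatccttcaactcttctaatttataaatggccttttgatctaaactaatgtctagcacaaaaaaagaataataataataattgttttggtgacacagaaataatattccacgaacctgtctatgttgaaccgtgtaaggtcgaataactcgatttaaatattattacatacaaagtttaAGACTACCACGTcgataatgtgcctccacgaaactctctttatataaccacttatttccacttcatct
XTH13: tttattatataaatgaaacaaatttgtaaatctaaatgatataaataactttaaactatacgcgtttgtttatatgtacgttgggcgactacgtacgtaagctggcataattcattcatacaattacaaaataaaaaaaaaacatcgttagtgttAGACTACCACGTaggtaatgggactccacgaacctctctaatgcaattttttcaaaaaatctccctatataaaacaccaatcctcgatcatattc
The run is the longest that these windows share, and the 2 of 27443 windows that hold it (0.00729%) are those of the pair. The count is therefore no measure of how particular the run is. Other members with this order of libraries were not compared, and the part of the run in the values was not tested.

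Genes that make, trim or sense the same wall polymers were examined as companions, and 0 of them were called in any comparison (limma). Of 15 tested genes of xyloglucan synthesis, 11 lay above 0 in OXmiR400 against wild type (73.3%, against 46.9% of all genes, median log2 fold change 0.14) and 12 in OXrPPR1 against wild type (80.0%, against 46.0%, median 0.10). At an unadjusted p under 0.05 there were 1 (6.67%, against 15.9% of all genes) and 2 (13.3%, against 10.5%), all higher. The member with the smallest p in OXmiR400 was XXT5, a xyloglucan xylosyltransferase, at 35.8, 32.5 and 28.9 FPKM in OXmiR400 and 27.4, 23.98 and 28.8 FPKM in wild type (adjusted p = 0.260 in limma). CSLC4, a synthase of the glucan backbone, was at 33.4, 27.0 and 28.3 FPKM in OXmiR400, 28.2, 35.5 and 29.3 FPKM in OXrPPR1 and 24.8, 18.7 and 26.8 FPKM in wild type, where the lowest value of each line exceeded every wild type library. Its adjusted p was 0.318 and 0.404 in limma for OXmiR400 and OXrPPR1 against wild type. XXT1, another xylosyltransferase, averaged 21.8 ± 1.34 FPKM in OXrPPR1 and, in wild type, 17.1 ± 0.855 FPKM (SD, n = 3 each, adjusted p = 0.393).

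Of the 5 trimming glycosidases, BGLC3, a beta-glucosidase of xyloglucan, was at 7.93, 6.49 and 6.76 FPKM in OXmiR400, 5.09, 5.19 and 5.65 FPKM in OXrPPR1 and 6.91, 7.35 and 8.01 FPKM in wild type. OXrPPR1 was thus lowest in every library, and the medians of the 5 genes were 0.041 in OXmiR400 and -0.073 in OXrPPR1 against wild type. BGLC3 had an adjusted p of 0.256 in OXrPPR1 against wild type in limma. The 12 cellulose synthesis genes had medians of -0.018 in OXmiR400 and 0.068 in OXrPPR1 against wild type, with 0 at an unadjusted p under 0.05 in either. The 21 growth hormone and acid growth regulators had medians of 0.12 and -0.13 in OXmiR400 and OXrPPR1 against wild type and of 0.13 between the lines, with 4 (19.1%), 2 (9.52%) and 7 (33.3%) at an unadjusted p under 0.05, where the shares over all genes were 15.9%, 10.5% and 7.41%. They went both ways, with 2 higher and 2 lower in OXmiR400 and 0 higher and 2 lower in OXrPPR1 against wild type, and 6 higher and 1 lower in OXmiR400 against OXrPPR1. DWF4, a rate-limiting enzyme of brassinosteroid synthesis, was at 16.6, 16.2 and 16.4 FPKM in OXmiR400, 15.7, 12.4 and 12.3 FPKM in OXrPPR1 and 11.6, 11.5 and 11.6 FPKM in wild type (adjusted p = 0.0851 for OXmiR400 against wild type in limma). HAT2, an auxin-induced homeobox gene, averaged 51.7 ± 7.46 FPKM in OXmiR400 and 77.1 ± 10.4 FPKM in wild type (SD, n = 3 each, adjusted p = 0.142). The 11 genes of wall integrity sensing had medians of 0.23 in OXmiR400 and 0.12 in OXrPPR1 against wild type, with 4 (36.4%) at an unadjusted p under 0.05 in each, where the shares over all genes were 15.9% and 10.5%. Of the 4, 3 were higher and 1 lower in each, the lower ones being RALF1 in OXmiR400 (log2 -0.38, adjusted p = 0.292) and RALF33 in OXrPPR1 (-0.82, adjusted p = 0.387). RALF23, a secreted peptide, averaged 63.7 ± 1.92 FPKM in OXmiR400, 64.0 ± 13.6 FPKM in OXrPPR1 and, in wild type, 43.3 ± 10.2 FPKM (SD, n = 3 each, adjusted p = 0.197 and 0.373 against wild type).

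Members of the same families whose description uses other words were left out of the 58. EXP3 (AT2G37640), described by its barwin-like fold, was at 100, 94.2 and 80.9 FPKM in OXmiR400, 67.6, 39.7 and 55.0 FPKM in OXrPPR1 and 97.8, 65.0 and 71.5 FPKM in wild type. OXmiR400 exceeded OXrPPR1 in every library (log2 fold change 0.78 ± 0.21, SE, adjusted p = 0.403 in limma), the order also seen in EXPA6 and EXPA1. EXGT-A3 (AT2G01850) ran from 107 to 184 FPKM, XTH31 (AT3G44990), known from aluminium sensitivity, from 13.3 to 36.1 FPKM and XTH33 (AT1G10550) from 2.72 to 13.04 FPKM, and 0 of these 4 genes were called.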

How the data were processed

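Per the labels' protocols, TRIzol served to extract the RNA and a SMARTer kit to build the libraries. The deposited values are FPKM, a unit inferred from them because no header names it, since value times exon length sums to nearly the same total in every library. The 3 deposited tables were identical in content, so 1 was used. Per the submitters' processing notes the builds are GRCm38 and mm10, which are mouse builds, but 26513 of 26973 gene IDs matched TAIR10.1, 26504 with the same start and end, and all 58 members did. The aligner, the counter and their use of strand and of reads with several matches were not given in the sources used here.

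Low values lay on multiples of 1 step in 99.4% to 99.6% of cases (tolerance 0.05 of a step), 4 steps to a unit. On whole units alone lay 46.4% to 49.7%, so no count model was used. Depth was rebuilt from the steps, and low genes have the least precision.

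Genes whose mean was 1 FPKM or more in any genotype were fitted as log2(FPKM + 1) in limma 3.58.1 (R 4.3.3), with genotype as the only term over 9 libraries, a trended, robust variance and Benjamini-Hochberg adjustment over 19955 genes. The pseudocount understates changes of low genes. The code was tested on simulated data. Members and lists were chosen with earlier results of these data known. Values per library were given for called members and for the 3 of each family with the smallest p in each line against wild type. They were also given for the 3 with the highest mean and for those just inside the filter. Members outside the filter, EXPB2 among them, were given by a genotype mean or a single value only. Companion genes were to be named where called or among the 2 with the smallest p of a list and comparison. Only some of these companion genes are given. Other genes were named after their values were seen. Sequences are from RefSeq TAIR10.1. Tables and figures used Python 3.11.15, pandas 2.3.3 and matplotlib 3.10.9. Alternatives were median centring, no filter, a filter of 5 FPKM, a pseudocount of 0.1 FPKM, no variance trend, fits on the 6 libraries of a comparison alone, a block for the replicate number, and libraries left out.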

Additional observations from a re-analysis of the deposited data

How the results depend on the processing

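No member was called under median centring, no or a stricter filter, the smaller pseudocount, no variance trend, only the 6 libraries compared, or without any 1 library; the smallest adjusted p of a member in OXmiR400 against wild type under the settings that keep all libraries of the genotypes was 0.0738, with only the 6 libraries compared. Without 1 library, or without wild type replicate 2 and OXrPPR1 replicate 3 together, calls ranged from 0 to 2 in OXmiR400 against wild type, from 0 to 2 in OXrPPR1 against wild type and stayed 0 between the lines, with 2 only under the joint omission. The median log2 fold change ranged from 0.13 to 0.25, from 0.085 to 0.33 and from -0.13 to -0.0005 in these comparisons, and with no expression filter it was 0.13 in OXmiR400 against wild type, where genes near 0 enter. Members at an unadjusted p under 0.05 ranged from 7 to 19, from 5 to 15 and from 3 to 11, while over all genes that share ranged from 10.9% to 17.7%, from 7.54% to 16.3% and from 5.5% to 8.97%. In OXmiR400 against wild type they numbered 7 without OXmiR400 replicate 1 (15.9%, against 13.8% of all genes). In OXrPPR1 against wild type there were 10 of 45 without OXrPPR1 replicate 3 (22.2%, against 13.2%) and 9 without wild type replicate 2 (20.5%, against 10.9%). Between the lines there were 3 without OXmiR400 replicate 2 (6.82%, against 5.91%) and 4 without OXmiR400 replicate 3 (9.09%, against 6.21%). Without OXrPPR1 replicate 3 there were 4 of 45 between the lines (8.89%, against 8.03%). That comparison had 11 without wild type replicate 2 (25.0%, against 7.81%) and 12 with only the 6 libraries compared (27.3%, against 7.93%). The cause was not tested. Signs turned for EXLB1 (-0.16 to 0.65), EXPB1 (-0.038 to 0.20) and EXPB3 (-0.33 to 0.51) in OXmiR400 and for EXLB1 (-0.19 to 0.62), EXPA8 (-0.66 to 0.061), EXPB1 (-0.059 to 0.29) and EXPB3 (-0.47 to 0.51) in OXrPPR1 against wild type, over the omissions of libraries. Signs and calls were followed for only 38 results of single genes. These had an unadjusted p under 0.05, a call under an alternative, or one of the 3 smallest p of a family against wild type. Of their 641 values under alternatives, 627 kept sign and call. Because the 38 were picked by p and none was called with all 9 libraries, that number does not measure how stable the members are. Signs of the other results were not followed. With 3 libraries a genotype the intervals were wide, and members near 1 FPKM rest on the fewest units.

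The replicate numbers were tried as a block. Same-numbered libraries showed no clear common deviation (correlations of -0.246 to 0.133). The own number was the best match in 4 of 9 pairings of a number and a comparison. With 3 libraries per genotype these values cannot exclude a pairing, and whether the numbers pair the samples is not known. With the replicate block 0 members were called in each comparison, and the smallest adjusted p was 0.0763, 0.126 and 0.181.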
